A study of Danio rerio with 11 samples.

Results

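The genes described here carry out mitosis: the kinases, checkpoint proteins, kinetochore subunits, motors, condensins and cytokinesis factors that part the chromosomes and then the cell. They were chosen by name from a list of 46 zebrafish genes, and 39 of the 32105 gene IDs in the count files carried one of these names in any case of letters. Some of the 39 are written in capitals like a human symbol, such as CENPF, SMC2 and TOP2B, and were matched by ignoring case. For another 4 listed genes the names differ beyond case, with only human symbols known (KIF4A, BIRC5 and 2 IDs named PRC1). These are described apart from the 39 because the name does not settle which zebrafish gene they are. No ID was matched for cenpa, incenp or ube2c, which were not analysed here. All 39 genes passed the filter on low counts, as did 15838 genes in all.

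RNA-seq was measured in livers dissected from larvae at 5 dpf (120 hpf). The hUHRF1 larvae, labelled hUHRF1-high, carry Tg(fabp10a:hUHRF1-EGFP)high, in which the fabp10a promoter drives human UHRF1 fused to EGFP in hepatocytes, and were picked by their fluorescence, whereas the WT siblings carry no transgene and did not fluoresce. Each library is a pool of livers from a single clutch: 5 hUHRF1 pools of 27 or 30 livers (clutches 4, 6, 7, 8 and 9) and 6 WT pools of 20 livers (the same clutches and clutch 5). The labels describe larvae from a cross between carriers, whereas the methods describe carriers crossed to WT adults. The number of livers per pool differs between the conditions without overlap, so that its effect and that of the transgene cannot be told apart.

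Most mitotic genes are transcribed late in the cell cycle and their mRNAs are nearly absent from resting cells, so that their level in a tissue follows how many cells are on the way to dividing. Chromosomes are first compacted by condensins, then caught at the kinetochore by spindle microtubules under the control of Aurora and Polo kinases. The spindle checkpoint holds back the anaphase-promoting complex until every chromosome is attached, after which separase cuts cohesin and the cell divides at its middle. UHRF1 itself recruits the maintenance DNA methyltransferase to newly replicated DNA and is highest in cycling cells. In pooled livers, fewer cells of a type and less RNA per cell cannot be told apart.

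Total counts lay between 9064943 and 23322479 per library. Levels are in CPM (counts of a gene scaled to the same library size in all pools with edgeR's TMM factors), or as log2 fold change (L2FC) of hUHRF1 over WT livers. TMM factors were 1.12 to 1.71 in the hUHRF1 pools and 0.672 to 0.978 in the WT pools, so that the scaling matters for every direction given here: the median L2FC of all tested genes was 0.05 with TMM and 0.83 with library size alone. Hepatocyte markers (9 IDs) summed to 81562 to 159918 CPM in WT and 27022 to 79897 CPM in hUHRF1 pools, and 7 of the 9 were called lower. Macrophage markers (9 IDs) summed to 20.0 to 43.3 CPM in WT and 48.3 to 63.8 CPM in hUHRF1 pools, and exocrine pancreas markers (6 IDs) to 416 to 1773 and 874 to 7468 CPM. The part of these cells in the mitotic signal was not tested.

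None of the 39 mitotic genes differed between hUHRF1 and WT livers at an adjusted p-value under 0.05 when pools were compared without regard to clutch (0 called of 39, edgeR's quasi-likelihood test). Over all tested genes 29.1% were called, 14.5% higher and 14.6% lower. At an unadjusted p-value under 0.05 there were 2 mitotic genes, espl1 and kif15, against 40.4% of all genes. Of the mitotic genes, 34 of 39 had a positive L2FC, with a median of 0.53. Of all tested genes 52.5% had a positive L2FC, and their median was 0.05. As described further on, the mitotic genes rose and fell together from pool to pool, so that the 34 values are not independent of each other. The standard errors of the L2FCs of the mitotic genes were large (median 0.55), and the 95% interval of 36 of the 39 genes reached above an L2FC of 1. For these 36 genes a doubling thus lay inside the interval, and the missing calls do not show that the conditions were equal. With library size in place of TMM all of the L2FCs were raised, the median to 1.27, and 10 of the 39 genes were called higher, where 52.1% of all genes were.

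**Figure D1:**
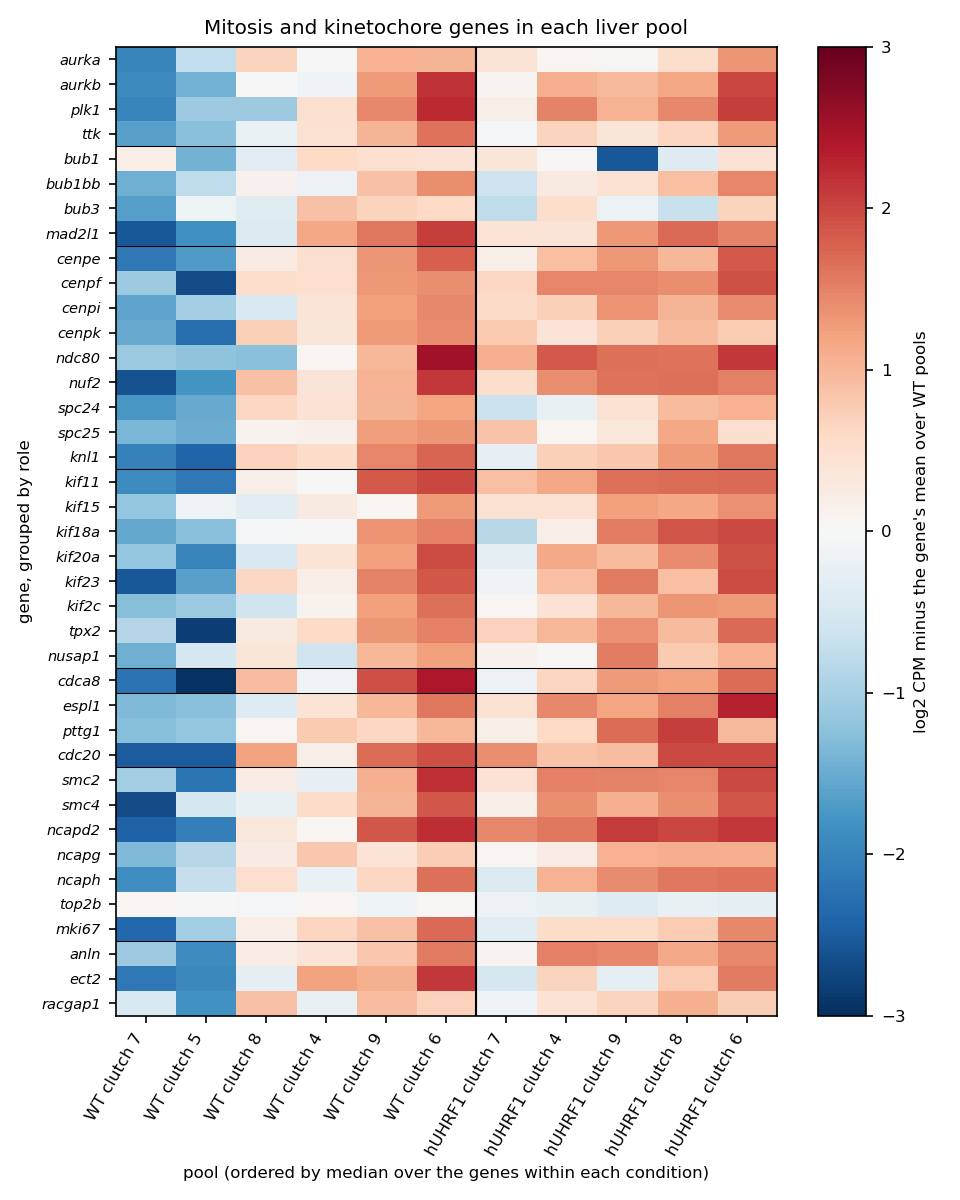
Level of each of the 39 mitotic genes in each pool, as log2 CPM minus the mean of the gene over the 6 WT pools, with genes grouped by role and pools ordered within each condition by their median over the genes. The columns of WT clutches 7 and 5 are low and those of WT clutch 6 and hUHRF1 clutch 6 high for nearly all genes, with top2b flat across all pools.

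The WT pools differed widely from each other in the mitotic genes. Relative to the mean of the WT pools, the median log2 level of the 39 genes was 1.62 in the WT pool of clutch 6 and 1.06 in that of clutch 9. It was 0.38 in clutch 4 and 0.17 in clutch 8, and -1.42 and -1.58 in clutches 5 and 7. The hUHRF1 pools spanned a narrower range, with 0.67, 1.50, 0.17, 1.15 and 1.06 in clutches 4, 6, 7, 8 and 9. All 5 hUHRF1 pools thus lay between the lowest and highest WT pool and above the WT pools of clutches 5 and 7. Summed over the 38 genes besides top2b, expression ran from 29.9 CPM in WT clutch 7 to 322 CPM in WT clutch 6, a 10.8-fold range, and from 119 to 304 CPM in the hUHRF1 pools, a 2.55-fold range. In counts these sums were 307 and 7334 for the WT pools of clutches 7 and 6.

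The SD of log2 CPM over WT pools had a median of 1.46 over the mitotic genes and of 0.44 over all tested genes. Over hUHRF1 pools the medians were 0.61 and 0.43. The mitotic genes and all tested genes were not matched in level, and counting error widens the SD of genes with few counts. The SD was larger among WT than among hUHRF1 pools for 37 of the 39 genes, compared with 51.9% of all tested genes. The related sets described further on shared this, with a larger SD among WT pools for 69 of 83 other mitosis genes (median SD 0.97 in WT and 0.48 in hUHRF1 pools) and for 42 of 51 replication genes (0.70 and 0.43). The WT pool of clutch 6 was the highest WT pool for 33 of the genes (17.7% of all tested genes), and that of clutch 7 or of clutch 5 was the lowest for 25 and 12 (20.9% and 19.0% of all tested genes). In WT clutch 7, 30 of the genes had at most 10 counts, so that single values there carry a large counting error. Among hUHRF1 pools that of clutch 6 was highest for 28 genes (22.8% of all tested genes) and that of clutch 7 lowest for 30 (22.0% of all tested genes).

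**Figure D2:**
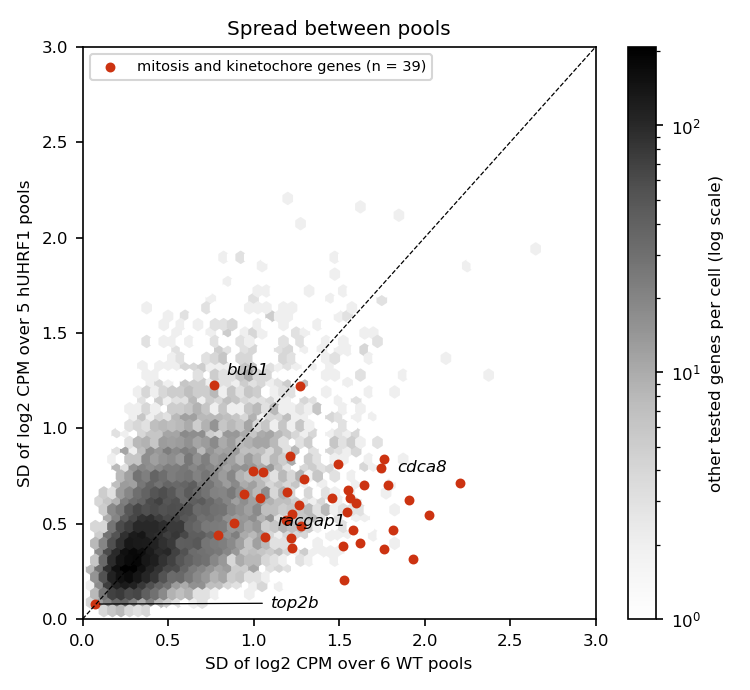
SD of log2 CPM over the 6 WT pools (x axis) and the 5 hUHRF1 pools (y axis), with the 39 mitotic genes as points, all other tested genes as shaded cells and the dashed line at equal SD. All but 2 mitotic genes lie below the line, around a median of 1.46 in WT and 0.61 in hUHRF1 pools.

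Some features of the WT pools had their extremes in the same pools as the mitotic genes, without following them throughout. WT clutch 6 had the highest TMM factor of the WT pools (0.978) and WT clutch 7 the lowest (0.672). Their hepatocyte markers summed to the least and the most of the WT pools, 81562 and 159918 CPM. Between these the order differed, with hepatocyte markers at 101733, 105988, 126317 and 135121 CPM in WT clutches 4, 5, 9 and 8. The TMM factor was 0.794, 0.782, 0.761 and 0.733 in WT clutches 4, 9, 5 and 8. This is nearly the order of the mitotic genes, in which clutches 4 and 9 change places, as do clutches 5 and 8. The erythroid markers (4 IDs) were lowest in the WT pools of clutches 9 and 6, at 91.1 and 167 CPM, and reached 379 CPM in clutch 5. In WT clutch 7 they came to 236 CPM, below the 295 CPM of WT clutch 4. Exocrine pancreas markers were highest in WT clutches 6 and 9, at 1773 and 1341 CPM. Among hUHRF1 pools the order of pancreas markers was different, since the pool of clutch 6, the highest in mitotic genes, had the least of them at 874 CPM. Macrophage markers did not follow the mitotic genes, with 40.1 and 24.7 CPM in WT clutches 6 and 9. They came to 20.0 and 41.8 CPM in WT clutches 5 and 7. Neutrophil markers (3 IDs) came to 4.39 and 5.23 CPM in WT clutches 6 and 9 and to at most 2.24 CPM in the other WT pools. The part of all these cells in the mitotic signal was not tested.

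The genes rose and fell together from pool to pool. Over the 11 pools, 36 of the 39 genes had a correlation above 0.8 with the median of the other mitotic genes (0.82 for racgap1 to 0.99 for cenpe), as a description over pools that share clutches and scaling. The share of all tested genes with such a correlation to the mitotic median is not given here. The exceptions were the checkpoint genes bub3 (0.61) and bub1 (0.14) and the topoisomerase gene top2b (-0.53). The checkpoint kinase gene bub1 was detected with few counts, and its lowest value was a single count in the hUHRF1 pool of clutch 9.

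Among the mitotic kinases, plk1, which encodes Polo-like kinase and drives mitotic entry, was lowest at 0.58 CPM, had a median of 2.47 and reached 12.9 CPM in the WT pools. Its values in the hUHRF1 pools of clutches 4, 6, 7, 8 and 9 were 7.60, 11.6, 3.01, 7.44 and 5.56 CPM. The hUHRF1 pools lay inside the WT range, and with an adjusted p of 0.48 (edgeR) the L2FC was 0.63 (standard error 0.63). The Aurora kinase genes aurka and aurkb, of which the former acts at spindle poles and the latter at centromeres, had L2FCs of 0.25 and 0.52 with standard errors of 0.53 and 0.63. The checkpoint kinase gene ttk had an L2FC of 0.22.

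Spindle checkpoint genes were nearest to 0 of the role groups with more than 1 gene, with a median L2FC of 0.07. The L2FC of mad2l1, whose protein blocks the activator of the anaphase-promoting complex, was 0.32 (standard error 0.67). Its WT pools ran from 0.195 CPM in clutch 7 to 7.73 CPM in clutch 6, wider than the hUHRF1 pools, which ran from 2.31 to 5.92 CPM. The values of bub1bb and bub1 were 0.37 and -0.26.

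The 9 kinetochore and centromere genes had L2FCs from 0.06 (spc24) to 0.96 (ndc80) and a median of 0.53. The product of ndc80 forms, with those of nuf2, spc24 and spc25, the complex that grips microtubules. In WT pools its lowest, median and highest values were 0.25, 0.55 and 4.96 CPM. In the hUHRF1 pools of clutches 4, 6, 7, 8 and 9 they were 3.09, 3.74, 1.76, 2.64 and 2.70 CPM. A single WT pool, that of clutch 6, exceeded all hUHRF1 pools. Without it ndc80 was called higher, with an L2FC of 2.07 (adjusted p = 0.0090, edgeR), where 14.4% of all tested genes were called higher. Of the 11 fits with a pool left out, this was the only 1 that called ndc80, and leaving out the highest WT value raises the L2FC by itself. The gene of the large kinetochore protein CENP-F, cenpf, is described by clutch further on, and cenpi of the inner kinetochore had an L2FC of 0.65 (standard error 0.49).

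Of the 8 kinesin and spindle genes, all had positive L2FCs, between 0.46 and 0.89. The widest interval was that of kif18a, a motor that damps chromosome movement, whose L2FC was 0.89 with limits of -0.52 and 2.30. The spindle assembly factor gene tpx2 reached 8.19 ± 2.37 CPM in hUHRF1 pools (SD, n = 5). WT pools reached 5.19 ± 3.87 CPM (SD, n = 6), and the adjusted p was 0.38 (edgeR). In all 5 clutches the hUHRF1 pool exceeded its sibling pool, by 0.05 to 1.57 on the log2 scale, and such a pattern was found in 7 of the 39 mitotic genes and in 20.8% of all tested genes.

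**Figure D3:**
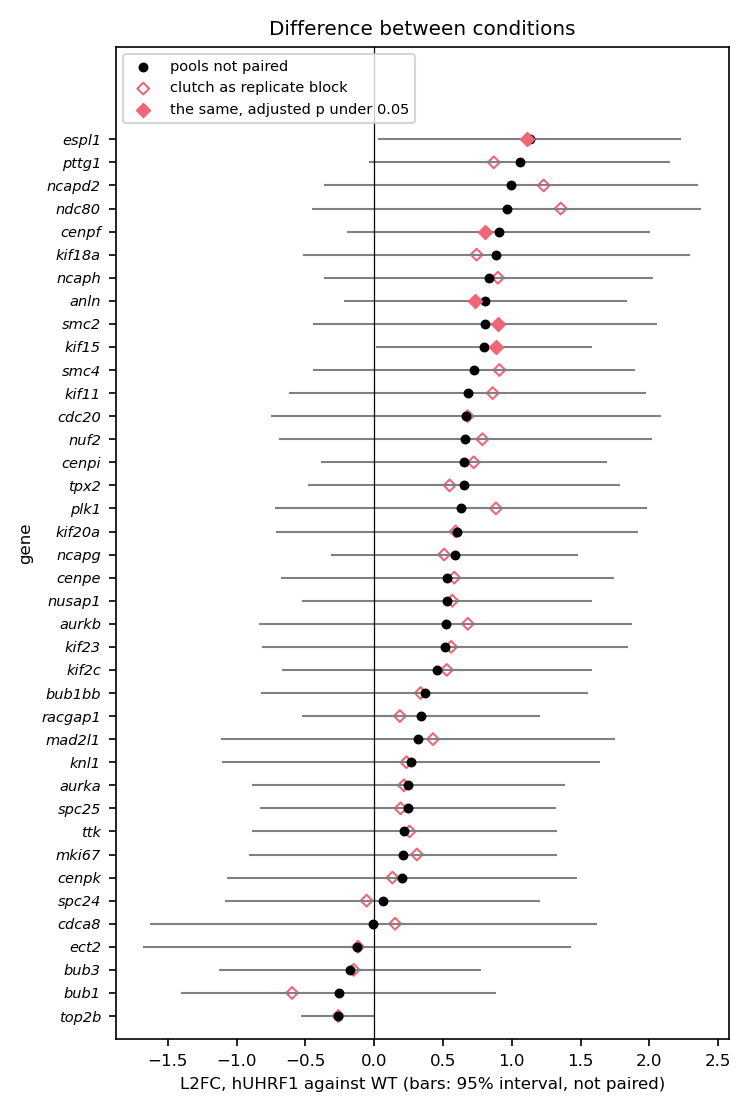
L2FC of hUHRF1 over WT livers for the 39 mitotic genes, in order (black points), with the 95% interval of the comparison that does not pair pools (grey bars) and the value with clutch as a replicate block (diamonds, filled at an adjusted p-value under 0.05). The unpaired values run from -0.26 for top2b to 1.13 for espl1, and 5 diamonds are filled.

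The gene cdca8 (borealin), the only passenger complex partner of Aurora B among the 39 genes, showed the widest spread between WT pools, with an SD of 2.21 on the log2 scale. It had 1 count in WT clutch 5, 2 counts in WT clutch 7 and 178 counts in WT clutch 6. The hUHRF1 pools held between 21 and 152 counts, and the L2FC was -0.01 (standard error 0.76).

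The genes of anaphase onset had the highest median of the role groups, 1.06 over 3 genes. The gene espl1 (separase, the protease that opens cohesin) is also described by clutch. For pttg1, which encodes securin, the inhibitor of separase, the values were 1.42, 1.85, 1.02, 4.16 and 3.12 CPM in the hUHRF1 pools of clutches 4, 6, 7, 8 and 9. The WT pools had a lowest value of 0.29, a median of 1.18 and a highest of 1.89 CPM, so that the conditions overlapped in 3 hUHRF1 pools. With a standard error of 0.51, the L2FC of 1.06 had an adjusted p of 0.14 (edgeR). Expression of cdc20, the activator of the anaphase-promoting complex, was 0.195 to 6.72 CPM in WT and 3.14 to 7.01 CPM in hUHRF1 pools (L2FC 0.67, standard error 0.66).

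Among condensation genes, ncapd2 of condensin I contrasted most between the conditions in its spread. The hUHRF1 pools held 11.3, 16.4, 10.2, 15.2 and 16.2 CPM in clutches 4, 6, 7, 8 and 9. The WT pools of the same clutches held 3.82, 17.5, 0.58, 4.71 and 13.8 CPM, and that of clutch 5 held 0.79 CPM. The SD of log2 CPM was 0.31 over hUHRF1 and 1.93 over WT pools, and at an L2FC of 1.0 (standard error 0.63) the adjusted p was 0.26 (edgeR). For ncaph, the subunit that closes the condensin I ring, the L2FC was 0.83 (standard error 0.56). The proliferation marker mki67, which coats mitotic chromosomes, was not a leading gene, with an L2FC of 0.21 (standard error 0.52) and 3.12 to 53.2 CPM in WT pools.

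The gene top2b (ENSDARG00000034195) behaved unlike the others. It encodes the topoisomerase II of resting as well as cycling cells. Its values were 35.0, 33.6, 36.3, 35.1 and 31.4 CPM in the hUHRF1 pools of clutches 4, 6, 7, 8 and 9, and 42.9, 42.3, 42.8, 39.5 and 37.7 CPM in their WT siblings, with 41.3 CPM in WT clutch 5. Every hUHRF1 pool was below every WT pool, a separation found for this single mitotic gene and, in either direction, for 17.1% of all tested genes. The L2FC of -0.26 (standard error 0.13) did not pass in edgeR (adjusted p = 0.13) and did in DESeq2 (L2FC -0.30, adjusted p = 0.042), which called 13.4% of all genes lower. With library size alone its direction turned and it was called higher (L2FC 0.52, adjusted p = 0.018, edgeR). The gene of its mitotic counterpart, top2a (ENSDARG00000024488), named here for that reason, ranged from 1.56 to 45.3 CPM in WT and from 13.8 to 32.4 CPM in hUHRF1 pools.

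Of the cytokinesis genes, racgap1, part of the complex that places the cleavage furrow, had an L2FC of 0.34 (standard error 0.40) and ect2, its partner, one of -0.12 (standard error 0.72). The L2FC of ect2 ranged from -0.55 to 0.51 with each pool left out in turn.

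Since clutch numbers mark siblings, hUHRF1 pools were also compared with their own siblings. The deviations of 2 pools of a clutch from the means of their conditions had correlations over all genes of 0.21 to 0.48. Correlations between pools of different clutches are not given here, so that these values do not show an effect of clutch itself. The hUHRF1 pool was higher for 29 of the 39 mitotic genes in clutch 4, for 14 in clutch 6, for 38 in clutch 7, for 35 in clutch 8 and for 17 in clutch 9. Of all tested genes, 49.5% to 53.3% were higher in each clutch. The median log2 difference over the mitotic genes was 0.41 in clutch 4, 1.70 in clutch 7 and 0.85 in clutch 8. It was -0.09 in clutch 6 and -0.25 in clutch 9, the clutches whose WT pools were the highest.

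With clutch as a replicate block, to which WT clutch 5 adds no contrast, 5 of the 39 genes were called higher and 0 lower, while 17.1% of all tested genes were called higher and 18.0% lower. The 5 were cenpf, kif15, espl1, smc2 and anln, of which smc2 was chosen for description after its value was seen. The standard error fell for each of the 39 genes (median 0.36) and the median L2FC was 0.57. With clutch 7 left out of this fit, an alternative chosen after seeing the data, cenpf and espl1 were still called, where 14.8% of all tested genes were called higher. With clutch 6 left out 7 genes were called higher, all 5 among them, and 12.6% of all tested genes.

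For cenpf (ENSDARG00000055133) the hUHRF1 pools of clutches 4, 6, 7, 8 and 9 held 17.0, 23.3, 9.42, 16.2 and 17.0 CPM. Their WT siblings held 8.75, 16.3, 2.82, 8.91 and 15.3 CPM, and WT clutch 5 held 0.85 CPM. The hUHRF1 pool was the higher in all 5 clutches, by 0.15 on the log2 scale in clutch 9 and by up to 1.70 in clutch 7. The blocked L2FC was 0.81 (standard error 0.21, adjusted p = 0.016, edgeR), against 0.90 (standard error 0.51, adjusted p = 0.20, edgeR) without pairing.

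Separase gene espl1 (ENSDARG00000075354) had 5.40, 9.96, 2.67, 5.68 and 4.47 CPM in the hUHRF1 pools of clutches 4, 6, 7, 8 and 9. Its WT siblings had 2.57, 5.93, 0.68, 1.43 and 3.88 CPM, and WT clutch 5 had 0.72 CPM. It was again higher in all 5 hUHRF1 pools, with a blocked L2FC of 1.11 (standard error 0.30, adjusted p = 0.017, edgeR). Without pairing the adjusted p-value was 0.11, and it was 0.025 once WT clutch 6 was left out (edgeR). WT clutch 6 held the highest WT value of espl1, and leaving it out raises the L2FC by itself. Of the 11 fits with a pool left out, this was the only 1 that called espl1. In it, 14.4% of all tested genes were called higher.

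The spindle motor gene kif15 (ENSDARG00000012073), whose product slides spindle microtubules apart, held 4.40, 8.38, 4.43, 7.20 and 7.67 CPM in the hUHRF1 pools of clutches 4, 6, 7, 8 and 9. The WT siblings held 3.82, 7.86, 1.36, 2.52 and 3.33 CPM, and WT clutch 5 held 2.89 CPM. In clutches 4 and 6 the siblings differed by 0.20 and 0.09 on the log2 scale, and in clutches 7, 8 and 9 by 1.62, 1.47 and 1.17. The blocked L2FC was 0.89 (standard error 0.29, adjusted p = 0.037, edgeR). Within clutches 7 to 9, a set apart from clutches 4 to 6 by the wording of its titles, kif15 was the only mitotic gene called (L2FC 1.39, adjusted p = 0.046, edgeR), where 7.71% of all genes were called higher. Within clutches 4 to 6, with 2 hUHRF1 and 3 WT pools, 0 were called and 0 had an unadjusted p-value under 0.05 (edgeR). The share of all tested genes called within clutches 4 to 6 is not given here, so that these counts cannot be set against it.

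The cytokinesis gene anln, which encodes the furrow protein anillin, had 13, 12.5, 4.77, 10.0 and 12.3 CPM in the hUHRF1 pools of clutches 4, 6, 7, 8 and 9 and 5.88, 13.4, 2.05, 5.21 and 7.93 CPM in their siblings. The condensin core gene smc2 had 9.22, 12.7, 4.31, 8.88 and 9.02 CPM and 2.65, 14.8, 1.46, 3.70 and 6.74 CPM. Both were higher in the hUHRF1 pool of every clutch but clutch 6, where the WT pool was the higher. Their blocked L2FCs were 0.73 and 0.90 (adjusted p = 0.029 and 0.042, edgeR).

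**Figure D4:**
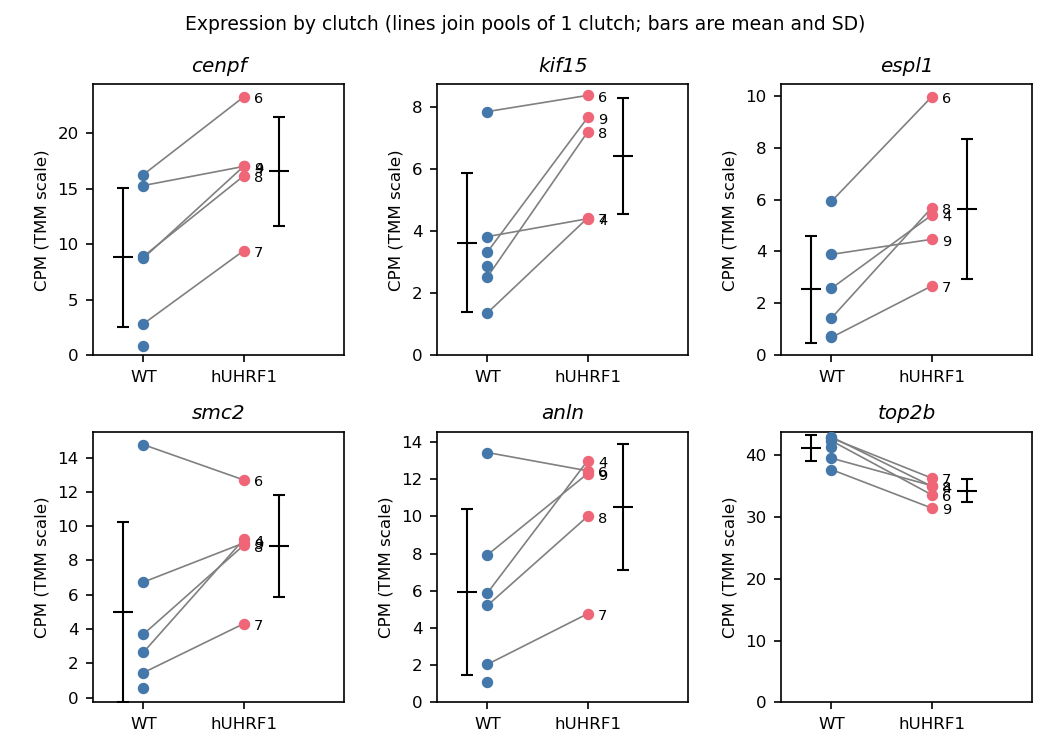
CPM on the TMM scale in each pool for the 5 genes called with clutch as a replicate block and for top2b, with lines joining the WT and hUHRF1 pools of a clutch (clutch number at right) and bars for the mean and SD of 6 WT and 5 hUHRF1 pools. Lines rise in all 5 clutches for cenpf, kif15 and espl1, in all but clutch 6 for smc2 and anln, and fall in all 5 for top2b.

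Leaving out the WT pool of clutch 6 alone raised the median L2FC of the mitotic genes to 0.97, and ndc80, kif15, espl1 and smc2 were called higher in the comparison without pairing, when 14.4% of all genes were. This pool was the highest WT pool for 33 of the 39 genes, so that leaving it out raises their L2FCs by itself. Each of the other 10 pools could be left out with 0 mitotic genes called (edgeR). The number at an unadjusted p-value under 0.05 was then at most 3. For these 10 fits the shares of all tested genes are not given here, so that the counts cannot be set against them.

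Genes of DNA replication were used to ask whether the mitotic genes follow the earlier step of the cell cycle. Of 51 tested replication genes, 12 were called higher and 0 lower without pairing, and their median L2FC was 0.72. Of all tested genes 14.5% were called higher and 14.6% lower. The called genes include gmnn (L2FC 2.22), whose hUHRF1 pools ran from 5.01 to 243 CPM and WT pools from 7.11 to 22.4 CPM. It was not called with clutch as a replicate block (adjusted p = 0.16, edgeR). Also among them are pold2 and orc2, at WT means of 0.39 and 0.26 CPM. The 3 replication genes with the smallest p-values were rpa1 (single-strand binding), pold1 (polymerase delta) and mcm5 (replicative helicase). For rpa1 WT pools had 13.1 ± 6.08 CPM (SD, n = 6) and hUHRF1 pools 27.5 ± 3.02 CPM (SD, n = 5), an L2FC of 1.07 (adjusted p = 0.0092, edgeR). Those of pold1 and mcm5 had L2FCs of 1.26 and 0.85. Replication genes varied less between WT pools than mitotic genes, with a median SD of 0.70 against 1.46 on the log2 scale, and whether their difference between conditions exceeds that of the mitotic genes was not tested. The number called depended on the WT pools too, from 5 without clutch 5 or clutch 8 to 21 without clutch 6. Of all tested genes, 14.4% were called higher without WT clutch 6.

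From pool to pool the levels of both sets moved together in WT livers. The median log2 level of replication genes was 0.74, 0.67, -0.08, -0.25, -0.45 and -0.51 in WT clutches 6, 9, 8, 4, 5 and 7, nearly the order of the mitotic genes, in which clutches 4 and 8 change places. The correlation of the pool medians was 0.90 (Spearman 0.94) over the 6 WT pools. Over all 11 pools, which share clutches and scaling, Pearson's r was 0.82 and Spearman's rho 0.70, and r was 0.54 without the 2 pools farthest from the median of replication genes (WT clutches 7 and 5). Pearson's r was 0.89 over the 5 pools of clutches 4 to 6 and 0.80 over the 6 pools of clutches 7 to 9. These values describe scores of chosen genes and carry no p-value. Of the 39 mitotic genes, 31 had a correlation above 0.7 with the replication median, led by ncapd2 (0.92), and 8.18% of all tested genes did.

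Over the 5 hUHRF1 pools r was 0.02, a value that rests on the pool of clutch 7, since r was 0.94 over the other 4 (chosen after seeing the data). Their replication medians were 0.53, 0.98, 1.03, 0.90 and 0.70 in clutches 4, 6, 7, 8 and 9, so that the pool of clutch 7 was the highest in replication genes and, at 0.17, the lowest in mitotic genes. The difference between the medians, mitotic minus replication, was -0.86 in this pool and 0.14 to 0.53 in the other hUHRF1 pools. In WT pools it ran from -1.07 to 0.88, so that the value of hUHRF1 clutch 7 was inside the WT range. With this pool left out, r over the remaining 10 was 0.91. The pool also had the highest sums of all pools for the markers of muscle (471 CPM over 2 IDs), neutrophils (5.96 CPM), biliary cells (1358 CPM) and blood progenitors and lymphoid cells (2.95 CPM), and the part of these was not tested.

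**Figure D5:**
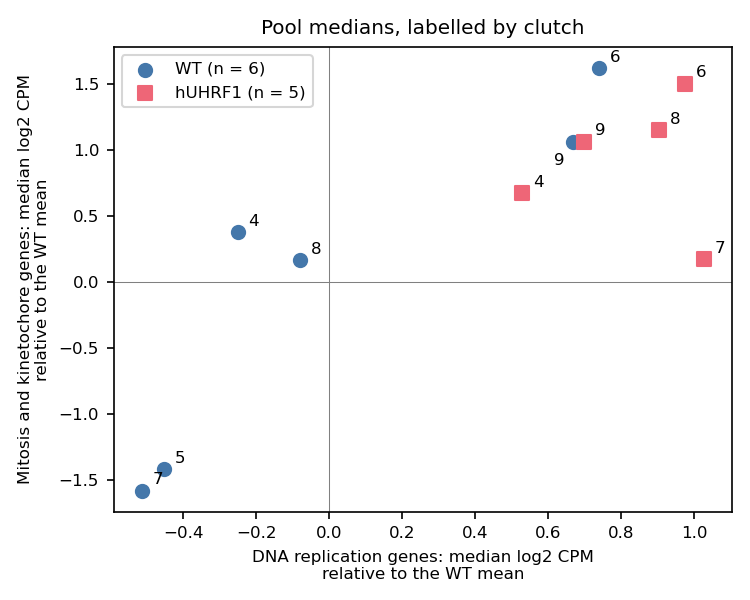
Median log2 CPM, relative to the WT mean, of 51 replication genes (x axis) and 39 mitotic genes (y axis) in each pool, labelled by clutch, with circles for WT and squares for hUHRF1. WT pools climb together from clutches 7 and 5 to clutches 9 and 6, and the hUHRF1 pool of clutch 7 stands at 1.03 and 0.17, right of and below the other hUHRF1 pools.

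Of 83 other tested genes of mitosis, 4 were called higher and 0 lower, with a median L2FC of 0.49, while 14.5% of all tested genes were called higher. They were ncaph2 and ncapg2, which encode subunits of condensin II, wee1, whose kinase restrains mitotic entry, and haus6 of the augmin complex, which seeds microtubules within the spindle. For ncaph2 (ENSDARG00000033757) the hUHRF1 pools of clutches 4, 6, 7, 8 and 9 held 6.18, 6.38, 5.51, 11.4 and 7.08 CPM, and their WT siblings 0.96, 4.79, 0.49, 2.19 and 1.19 CPM, with 0.72 CPM in WT clutch 5. Every hUHRF1 pool exceeded every WT pool, including that of clutch 6 (L2FC 2.04, standard error 0.48, adjusted p = 0.0063, edgeR). Such a separation upwards was found for 2 of the 83 genes and for 1275 of all 15838 tested genes. The L2FCs of wee1, haus6 and ncapg2 were 0.97, 1.58 and 1.44, and ncapg2 was named after its value was seen. The remaining condensin II subunit gene, ncapd3, had an L2FC of 1.04 (adjusted p = 0.14, edgeR) and was called with clutch as a replicate block (adjusted p = 0.025, edgeR). None of the 3 condensin I subunit genes ncapd2, ncapg and ncaph was called by edgeR with or without the block over all pools (0 with an unadjusted p-value under 0.05 without it). Other settings did call them higher: ncapd2 with the block in DESeq2 (adjusted p = 0.0037) and in edgeR without clutch 6 (adjusted p = 0.025), and ncapg and ncaph with library size alone (adjusted p = 0.026 and 0.046, edgeR). Of all tested genes, 14.2%, 12.6% and 52.1% were called higher in these 3 settings, in the same order. A difference between the complexes was not tested. With the block 7 of the 83 genes were called higher, and 17.1% of all tested genes.

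The mitotic cyclin gene ccnb1 and the kinase gene cdk1, named after their values were seen, also spread more widely over WT than over hUHRF1 pools. The value of ccnb1 (cyclin B) ranged from 0.20 to 14.2 CPM in WT and from 5.85 to 10.0 CPM in hUHRF1 pools, and that of cdk1 from 0.39 to 12.2 and from 3.97 to 8.50 CPM. Their L2FCs were 0.28 and 0.17 (adjusted p = 0.77 and 0.86, edgeR).

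The 4 IDs with a human symbol also passed the filter. KIF4A, a chromosome-bound motor, had an L2FC of 0.78 (standard error 0.43), and BIRC5 (survivin), a partner of Aurora B, one of 0.84 (standard error 0.61). The 2 IDs named PRC1, which bundles the central spindle, had L2FCs of 0.59 (ENSDARG00000005993) and 1.13 (ENSDARG00000100918). None was called without pairing (0 with an unadjusted p-value under 0.05, edgeR), and KIF4A and the latter PRC1 ID were called with clutch as a replicate block (adjusted p = 0.028 and 0.026, edgeR). Of all tested genes, 14.5% were called higher without pairing and 17.1% with the block.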

How the data were processed

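RNA-seq was measured in 11 pools of livers at 5 dpf, 5 hUHRF1 and 6 WT, grouped by their labels. According to the methods, ribosomal RNA was depleted with RiboZero, and both NextSeq and HiSeq instruments were used for sequencing. The methods do not say which pool ran on which instrument, and its part in the spread between pools was not tested. The authors removed adaptors, trimmed the reads, aligned them to GRCz10 with HISAT2 and counted them per gene with HTSeq (versions and strand setting not given in the sources used here), and deposited the counts without normalization. Reads of a gene and of one that overlaps it may not be told apart.

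The analysis of counts used edgeR 4.0.16 and limma 3.58.1 under R 4.3.3. Genes were kept with filterByExpr (minimum count 10, minimum total count 15), scaled with TMM factors and compared with the quasi-likelihood test, with Benjamini-Hochberg adjustment over all 15838 genes and a call under 0.05. Log2 CPM used a prior count of 2. Alternatives were DESeq2 1.42.0 and its size factors, library size only, other filters, clutch as a replicate block, the group of clutches and each pool left out. Symbols were known for 26269 IDs. On data simulated with 200 genes changed by 2 on the log2 scale, 156 of the 195 tested were called (80.0%), and 6.02% of calls were unchanged genes. The changed genes were drawn at random from all genes kept, with no effect of clutch. The share therefore does not tell how often a difference in the mitotic genes, with L2FCs of at most 1.13, would be called.

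The genes, lists and role groups were chosen with earlier results of these data known. Named are, per role group, the 3 genes with the smallest p-values, the 3 with the widest WT spread, the 3 replication and other mitosis genes with the smallest p-values, and other genes named were chosen after their values were seen. Clutch numbers mark siblings and so pair the pools. Deviations of pools of a clutch from the means of their conditions had correlations of 0.21 to 0.48 over all genes, with no values for different clutches given here. Marker lists of blood progenitors (0.79 to 2.95 CPM over all pools), endothelium (177 to 254), biliary cells (633 to 1358) and intestine (31.7 to 129) were also summed. Pools came from separate clutches, except that both conditions share 5 of them.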

Additional observations from a re-analysis of the deposited data

Results flagged for a closer look

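Among 50 sets of values of a gene or pool median within a condition, 3 held a pool far from the others (on the log2 scale for CPM), and chance flags about 1 in 20. The bub1 value of the hUHRF1 pool of clutch 9 was 0.084 CPM (1 count), next to 0.80 CPM in the nearest hUHRF1 pool. The hUHRF1 pool of clutch 7 was low for ncaph, at 0.74 CPM next to 2.25 CPM, and for anln, at 4.77 CPM next to 10.0 CPM. This is the pool that was highest in replication genes, and the cause was not tested.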

How the results depend on the processing

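The main limit is the spread between WT pools and the low counts of most of the 39 genes in WT clutches 5 and 7. A filter of at least 10 counts in every library kept 7 of the 39. With library size only, calls higher came to 10 of 39 mitotic genes, 42 of 83 other mitosis genes and 42 of 51 replication genes. Of all tested genes, 52.1% were called higher in this setting. The replication median was 1.49, and all 5 negative values turned positive (bub1 0.54, bub3 0.63, cdca8 0.70, top2b 0.52 and ect2 0.62). DESeq2 called 1 mitotic gene and 13.4% of all genes lower. Without a filter 7 replication genes were called, and with the stricter filter 1 other mitosis gene. For these filters the share of all genes called is not given here.

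With clutch as a replicate block 5 mitotic and 7 other mitosis genes were called higher (17.1% of all genes), and cdca8 was at 0.15. A term for the 2 groups of clutches put cdca8 at 0.0040. In clutches 4 to 6 alone 0 other mitosis genes and 1 replication gene were called, and bub1 (0.13), mad2l1 (-0.15) and cdca8 (0.12) changed sign. The share of all genes called there is not given here. In clutches 7 to 9 alone 1 mitotic and 6 replication genes were called and aurka was at -0.092. Of all tested genes, 7.71% were called higher in clutches 7 to 9, and 16.4% in either direction. The following were chosen after seeing the data. DESeq2 with the block called 9 mitotic genes and 14.2% of all genes higher (cdca8 0.18). The block called 7 mitotic and 8 other mitosis genes without clutch 6 (12.6% of all genes; cdca8 0.48, ect2 0.075), and 2 mitotic genes without clutch 7 (14.8% of all genes; aurka -0.19). The correlation of mitotic with replication medians was 0.89 with library size only, 0.77 with the stricter filter, 0.91 in clutches 4 to 6 scaled alone and 0.87 with means for medians. The cause of these changes was not tested.

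With each pool left out in turn, calls higher ranged from 0 to 4 for mitotic genes, from 1 (without hUHRF1 clutch 6) to 12 (without WT clutch 6) for other mitosis genes and from 5 to 21 for replication genes, with 0 to 1 replication gene lower (without WT clutch 8). Without WT clutch 6, 14.4% of all tested genes were called higher, and for the other pools left out this share is not given here. The median L2FCs of the sets, in the same order, ranged from 0.34 to 0.97, from 0.32 to 0.71 and from 0.65 to 0.90. The correlation ranged from 0.76 to 0.91 and the median WT SD of the mitotic genes from 1.17 to 1.59. Sign changes were found for aurka (-0.083 to 0.47), bub1 (-0.46 to 0.0087), cdca8 (-0.26 to 0.59) and ect2 (-0.55 to 0.51). Over all alternatives, 31 values of single genes gained a call, 9 lost it and 23 changed sign. The remaining 579 values were counted as the same. This number also holds the median SD of all tested genes under each alternative for the pool levels, which is not a value of a single gene.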
